A study of Homo sapiens with 20 samples.

Results

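The 4 HOX gene clusters were examined in the H3K4me3 landscape of WM164, a human melanoma cell line with a mutant BRAF kinase. All deposited peaks that overlap one of 4 intervals of build GRCh37 were taken: HOXA on chromosome 7 from 27130000 to 27260000, HOXB on chromosome 17 from 46600000 to 46810000, HOXC on chromosome 12 from 54330000 to 54450000, and HOXD on chromosome 2 from 176950000 to 177060000. The intervals are set by position, not by a threshold on peak values. It gave 535 peaks of 306295 on the autosomes and X, between 41 and 75 in a library. Peaks from any library that overlapped, or that were at most 1000 bp apart, were joined, which gave 35 HOX regions of 31428 in the genome: 8 in HOXA, 12 in HOXB, 9 in HOXC and 6 in HOXD. Regions are numbered within each cluster in the order of rising chromosome position.

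The data come from chromatin immunoprecipitation and sequencing of 10 H3K4me3 libraries, 2 in each of 5 groups. Parental WM164 cells received DMSO for 3 days. Colony cells (IDTC colonies in the labels) were kept in 50 nM of the BRAF inhibitor dabrafenib for 45 days, and resistant cells for more than 90 days, with the drug renewed every 3 days. The other groups overexpress GFP or the activated RAS protein NRAS Q61K, with no drug in their labels. All groups thus share the BRAF-mutant WM164 background, a single line. Neither the vector and promoter of the transgenes nor the derivation of the resistant cells, from colonies or not, is given in the sources used here. Nothing in the labels says that the 2 libraries of a group came from separate cultures, and the p-values therefore reflect the spread between these samples alone, possibly a technical one. The drug comparisons with parental cells share the same parental libraries.

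HOX genes encode homeodomain transcription factors that give cells along the body axis their positional identity. Within a cluster, gene order on the chromosome follows the order of expression along the axis, from low-numbered genes that act in the hindbrain and neck to high-numbered genes that act in the lower trunk, limbs and urogenital tract. H3K4me3, trimethylation of lysine 4 on histone H3, is laid down at active or poised promoters by trithorax-type KMT2 complexes, while Polycomb complexes keep silent HOX genes repressed. Differentiated cells, those of the skin among them, often retain the HOX pattern of their site of origin.

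The gene table at hand (RefSeq, GRCh38.p14) lists all 38 HOX genes considered, and it was used here for their order only, since its build differs from that of the peaks. Along rising chromosome position, HOXA runs from HOXA2 to HOXA13 and HOXB from HOXB1 to HOXB13, while HOXC runs from HOXC13 to HOXC4 and HOXD from HOXD13 to HOXD1. No gene was assigned to a region, and positions are given as distances from the start of an interval and by the side of the cluster they lie on. To show what kind of sequence lies upstream of these genes, RefSeq promoters were counted for CpG dinucleotides, the sites of CpG islands at which H3K4me3 is usually found. Promoters were at hand for 20 of the 38 genes (26 distinct start sites, counting once the start that HOXC4 and HOXC5 share). Their 250 bases upstream of the start held between 0 and 40 CpG with a median of 19.5, against a median of 11 over 35116 promoters in the genome. The promoters at hand for genes at the ends of clusters are shown with the poorer one of HOXD4, 5′ to 3′ on the gene's strand, with each CpG in capitals. They are HOXA2 (chr7:27102684-27102933, minus strand, 8 CpG), HOXA13 (chr7:27200092-27200341, minus strand, 40 CpG), HOXB1 (chr17:48531012-48531261, minus strand, 7 CpG), HOXC4, whose start is shared with HOXC5 (chr12:54016638-54016887, plus strand, 14 CpG), HOXD13 (chr2:176092471-176092720, plus strand, 21 CpG), HOXD4 (chr2:176151300-176151549, plus strand, 4 CpG) and HOXD1 (chr2:176188418-176188667, plus strand, 31 CpG), all in GRCh38.
HOXA2: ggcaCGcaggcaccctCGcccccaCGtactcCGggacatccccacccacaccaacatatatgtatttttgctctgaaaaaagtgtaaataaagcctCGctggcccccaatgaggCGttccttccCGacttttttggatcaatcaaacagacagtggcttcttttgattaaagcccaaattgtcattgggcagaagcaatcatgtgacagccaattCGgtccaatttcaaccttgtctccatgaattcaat
HOXA13: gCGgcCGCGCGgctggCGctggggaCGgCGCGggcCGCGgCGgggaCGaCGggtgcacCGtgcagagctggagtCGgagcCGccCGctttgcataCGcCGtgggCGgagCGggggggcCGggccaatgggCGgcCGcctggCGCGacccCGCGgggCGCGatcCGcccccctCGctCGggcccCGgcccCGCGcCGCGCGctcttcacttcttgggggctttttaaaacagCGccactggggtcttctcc
HOXB1: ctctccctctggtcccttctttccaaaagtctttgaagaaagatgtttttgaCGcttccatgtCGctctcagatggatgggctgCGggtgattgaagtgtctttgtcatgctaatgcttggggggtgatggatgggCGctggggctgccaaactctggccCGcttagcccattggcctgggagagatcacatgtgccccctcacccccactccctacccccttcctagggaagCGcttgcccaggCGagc
HOXC4: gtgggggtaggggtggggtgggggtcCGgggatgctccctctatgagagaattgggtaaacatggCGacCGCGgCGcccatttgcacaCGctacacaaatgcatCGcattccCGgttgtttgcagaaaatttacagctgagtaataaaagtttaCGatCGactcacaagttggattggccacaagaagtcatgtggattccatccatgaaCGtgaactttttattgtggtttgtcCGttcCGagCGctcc
HOXD13: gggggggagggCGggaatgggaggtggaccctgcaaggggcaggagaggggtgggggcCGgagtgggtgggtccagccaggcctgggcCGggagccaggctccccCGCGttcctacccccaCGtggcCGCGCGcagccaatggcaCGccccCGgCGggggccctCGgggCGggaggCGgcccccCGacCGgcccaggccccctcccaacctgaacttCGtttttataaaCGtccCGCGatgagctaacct
HOXD4: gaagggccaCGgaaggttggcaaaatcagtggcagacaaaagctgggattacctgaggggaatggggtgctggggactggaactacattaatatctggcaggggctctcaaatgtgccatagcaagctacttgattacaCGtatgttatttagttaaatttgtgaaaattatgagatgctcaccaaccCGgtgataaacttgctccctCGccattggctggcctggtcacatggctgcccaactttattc
HOXD1: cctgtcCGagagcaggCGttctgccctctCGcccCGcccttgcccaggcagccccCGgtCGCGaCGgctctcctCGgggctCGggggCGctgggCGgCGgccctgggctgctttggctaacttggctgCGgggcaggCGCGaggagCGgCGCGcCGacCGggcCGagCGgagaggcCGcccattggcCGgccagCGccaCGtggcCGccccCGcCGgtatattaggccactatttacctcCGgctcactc

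HOXA13, which patterns the distal limb and hindgut, thus has the densest of the promoters at hand, with as many CpG in only 2.16% of all promoters. HOXD1, the low-numbered end of HOXD, reached 31 (10.85% of promoters have as many) and HOXD13, a gene of digit formation, 21 (30.2%). HOXD4 with 4 and HOXB1, a gene of the hindbrain, with 7 CpG were met or exceeded by 70.7% and 58.9% of promoters. HOXA2, at the other end of HOXA, had 8. CpG density therefore differed widely among members of 1 cluster, from 4 to 31 in HOXD.

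All 4 clusters carried H3K4me3 in every library, in blocks separated by unmarked stretches. HOXA was the most densely marked, with 30250 to 32690 bp under peaks, 23.3 to 25.1% of its interval. HOXC had 19834 to 24416 bp (16.5 to 20.3%), HOXD 16939 to 18981 bp (15.4 to 17.3%) and HOXB 21310 to 26726 bp (10.1 to 12.7%). The order by percentage, HOXA, HOXC, HOXD and HOXB, has no overlap between HOXA and HOXC or between HOXD and HOXB, whereas the ranges of HOXC and HOXD overlap. This order depends on the interval edges. The HOXB interval is the longest, at 210 kb, and takes in a long, largely unmarked stretch towards HOXB13. HOX intervals were 11.01 to 14.6 times as densely covered as the autosomes and X as a whole.

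**Figure D1:**
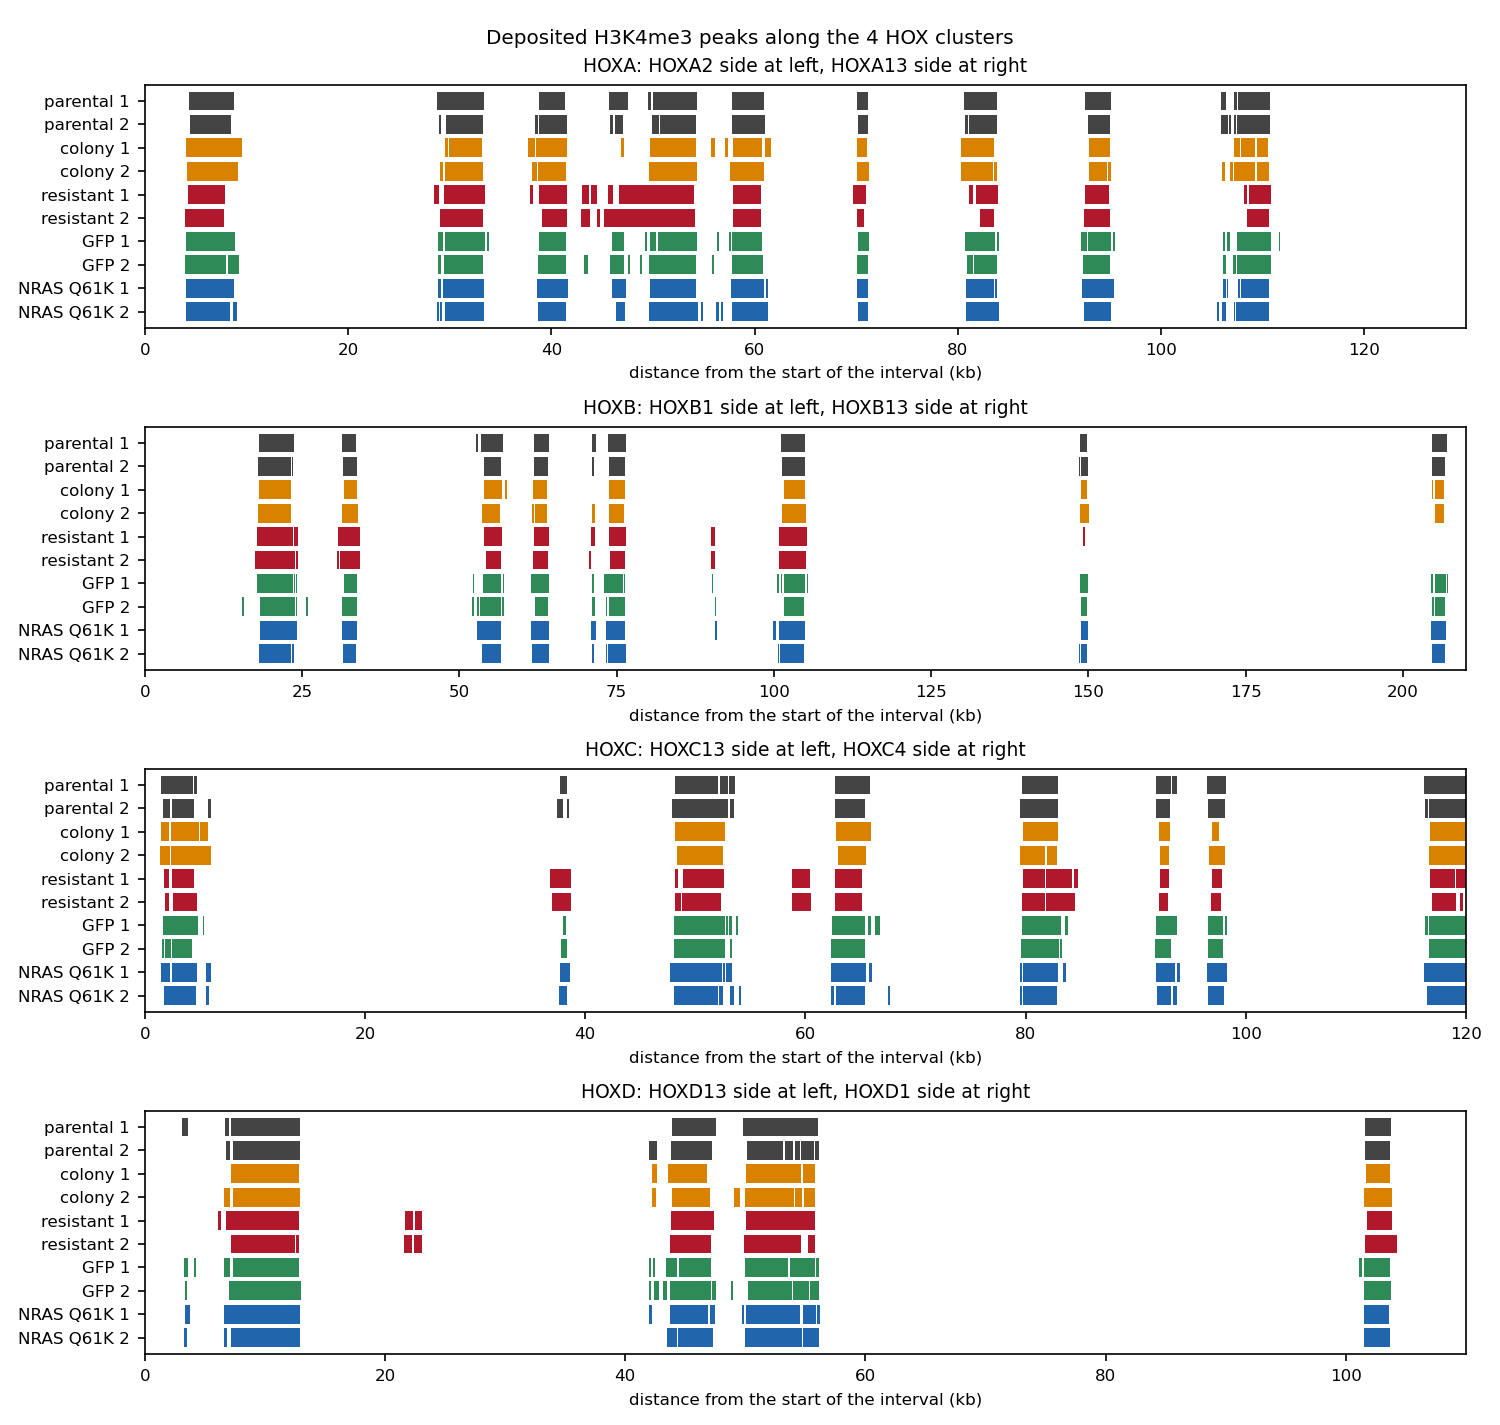
Deposited H3K4me3 peaks of the 10 libraries (rows) along the 4 HOX clusters, with distance from the start of each interval in kb on the horizontal axis; each block is a peak, coloured by group. Most blocks recur in all 10 libraries, while the resistant pair lacks the block at the HOXB13 end and has its own blocks at 21.6 kb in HOXD and 58.8 kb in HOXC.

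Along the clusters, 57 fixed windows of 10 kb show where the mark lay: 31 held peaks in all 10 libraries and 19 in none. HOXA held peaks in 11 of its 13 windows in all libraries. Its most covered window, at 50 kb, averaged 6640 bp, and the least covered of those 11 averaged 702 bp. HOXB was marked in 7 of 21 windows in all libraries and empty in 9 in all. Its empty windows lay at the HOXB1 edge, at 40 kb and in the long stretch towards HOXB13, the gene set apart from the rest of the cluster, which is known from the prostate and hindgut. HOXC was marked in 8 of 12 windows in all libraries. HOXD was marked in 5 of 11 in all and empty in 5 in all, with its mark concentrated in a block at the HOXD13 end, a central block and 1 region at the HOXD1 end.

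The 5 regions with the most covered bases on average were HOXA region 4, HOXD regions 2 and 5, HOXB region 2 and HOXC region 3. HOXA region 4 (chromosome 7, 27172931 to 27191585), in the middle of the cluster, ranged from 8020 to 12950 bp. HOXD region 2 (chromosome 2, 176956103 to 176962988), on the HOXD13 side, ranged from 5649 to 6393 bp, and HOXD region 5 (chromosome 2, 176998836 to 177006191) from 5322 to 6240 bp. HOXB region 2 (chromosome 17, 46617590 to 46624388), on the HOXB1 side, ranged from 5108 to 6703 bp. HOXC region 3 (chromosome 12, 54377737 to 54384151) ranged from 3994 to 5412 bp. These broad blocks were present in every library, as were 25 of the 35 regions. HOXB regions 1 and 3 had a peak in GFP 2 alone, of 249 and 211 bp, and could not be tested.

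The total length marked per cluster differed little between groups. A mark in fewer cells and a narrower mark in each cell cannot be told apart in such bulk libraries. In HOXA, parental libraries had 31253 ± 1418 bp (SD, n = 2 here and below), colony 31006 ± 18.4, resistant 31112 ± 1097, GFP 32494 ± 40.3 and NRAS Q61K 32433 ± 363 bp. In HOXB the means were 23508 ± 1893 bp in the parental pair, 21732 ± 597 in colony, 22966 ± 804 in resistant, 24627 ± 440 in GFP and 24996 ± 2447 in NRAS Q61K cells. HOXC had 22288 ± 702 bp in the parental pair, 19956 ± 172 in colony, 21717 ± 380 in resistant, 22208 ± 1942 in GFP and 23094 ± 1870 in NRAS Q61K cells. Colony cells were lowest in HOXB and HOXC, where both colony libraries lay below all 8 others, in HOXB only just (22154 bp in colony 2 and 22169 bp in parental 2). With lists cut to equal length neither held: HOXC then had 18837 bp in NRAS Q61K 2 against 19834 and 20077 bp in the colony pair, and HOXB 21474 bp in parental 2 against 21865 bp in colony 2. With weaker peaks (−log10 q under 10) dropped neither held either, with 18728 bp of HOXC in resistant 1 against 19162 and 20077 bp in the colony pair, and 20425 bp of HOXB in resistant 2 against 20708 and 21047 bp. HOXD had 18022 ± 820, 17416 ± 675, 18624 ± 446, 18812 ± 240 and 18480 ± 540 bp in the same order of groups, which overlap.

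**Figure D2:**
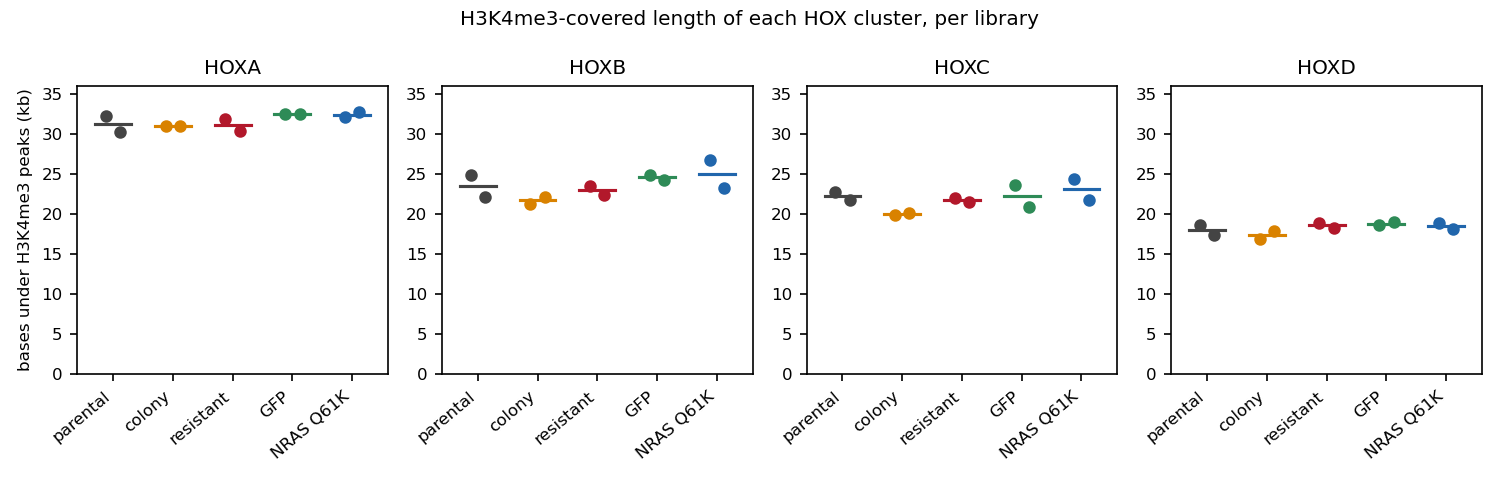
Bases under H3K4me3 peaks (kb) in each HOX cluster for the 10 libraries by group; points are libraries and bars the mean of the 2. HOXA sits between 30250 and 32690 bp in every library. The colony pair is lowest in HOXC in the full lists plotted, but not with lists of equal length or with weaker peaks dropped.

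Setting the 4 drug-exposed libraries against the 6 unexposed ones, the difference in mean coverage was -1001 bp in HOXA, -2028 bp in HOXB, -1694 bp in HOXC and -418 bp in HOXD. None of these 4 differences passed a two-sided exact permutation test adjusted over the clusters (raw p = 0.124, 0.0571, 0.0667 and 0.390; adjusted p = 0.165, 0.133, 0.133 and 0.390). Pairs of groups were not tested this way, because 2 libraries against 2 cannot reach an exact p below 0.3333. With lists of equal length the difference turned in HOXA (934.1 bp), HOXC (128.4 bp) and HOXD (860.4 bp; exact permutation, adjusted p = 0.629, 0.886 and 0.629). The direction also turned when HOX coverage was taken as a share of all bases under peaks in a library. On that scale resistant libraries stood at 2743 and 2714 HOX bases per Mb under peaks, against 2067 to 2255 in the other 8. The drug-exposed mean was then higher in all 4 clusters, by 122.5 bases per Mb in HOXA and 76.0 in HOXD (exact permutation, adjusted p = 0.0381 each), and by 61.5 in HOXB and 61.7 in HOXC (adjusted p = 0.200 each). The permutation counts the 2 libraries of a group as separate units. Its p-values therefore cannot tell drug exposure in general from the particular colony and resistant cells. The resistant pair lay above all 8 other libraries in each cluster, with mean shares of 899 bases per Mb in HOXA, 664 in HOXB, 628 in HOXC and 538 in HOXD. The colony means were 761, 533, 489 and 427 and the parental means 728, 547, 520 and 420, so colonies were below parental cells in HOXB and HOXC. Total covered sequence moved with this share: it was 35.1 and 34.1 Mb in the resistant libraries and 40.2 to 48.5 Mb in the others. The shortest peak of a list also differed by group, at 202 and 180 bp in the parental pair, 282 and 284 in the colony pair, 255 and 256 in resistant and 142 to 153 bp in transgene libraries. Its part in the results was not tested.

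Resistant cells differed from parental cells in both directions within the HOX clusters. They carried H3K4me3 at regions of HOXB, HOXC and HOXD that were empty in parental cells, had broader blocks in the middle of HOXA and on the HOXB1 side of HOXB, and had lost the mark at the HOXB13 end. Covered length was tested with limma on log2(bases under peaks + 200), after centring each library on regions covered in all 10, with Benjamini-Hochberg adjustment over 23153 regions and a threshold of 0.05. Of 33 HOX regions tested, 10 were wider in resistant cells (7.93% of all regions tested were) and 5 were narrower (20.6% were). The median log2 change of the HOX regions was 0.12 and that of all regions -0.07. With fixed windows 10 of 37 were wider (7.57% of all) and 4 narrower (18.6%). The median log2 widths removed by centring were -0.19 and -0.22 in the resistant libraries, so widths are relative to a general narrowing.

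The narrowing with the smallest adjusted p was in HOXB. HOXB region 12 (chromosome 17, 46804501 to 46807150), the last region at the HOXB13 end, 204.5 kb into the interval, had 2372 and 2154 bp under peaks in the parental libraries. It had 1775 and 1500 bp in colony, 2202 and 1991 bp in GFP and 2404 and 2148 bp in NRAS Q61K libraries, and no peak in either resistant library. All 8 other libraries thus carried this block, and the resistant pair was the exception (adjusted p = 1.96e-06 against parental). It was the 1 HOX region lost from both resistant libraries, where 11.8% of all 31428 regions were. Its neighbour, HOXB region 11 (chromosome 17, 46748457 to 46750014), had 1101 and 1189 bp in the parental pair, 1079 and 1284 in the colony pair, 311 and 0 in the resistant pair, 1177 and 968 in the GFP pair and 1141 and 1099 bp in the NRAS Q61K pair. Both resistant values lay far under all others (log2 change -1.88, SE 0.37, adjusted p = 0.00678).

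At HOXB regions 2 and 4, on the HOXB1 side, the resistant pair was instead the broadest. HOXB region 5, 52 kb into the interval, was lowest on average in resistant cells (2657.5 ± 367 bp) and was not called. HOXB region 4 (chromosome 17, 46630543 to 46634181) covered 2342 and 2190 bp in the parental pair, 2094 and 2422 in the colony pair, 3367 and 3234 in the resistant pair, 2141 and 2405 in the GFP pair and 2360 and 1968 bp in the NRAS Q61K pair. The resistant values stood clear of all others (log2 change 0.70, SE 0.09, adjusted p = 0.000976). HOXB region 2 had 5563 and 5409 bp in the parental pair, 5108 and 5241 in the colony pair, 6235 and 6703 in the resistant pair, 5984 and 5751 in the GFP pair and 5866 and 5337 bp in the NRAS Q61K pair (log2 change 0.43, SE 0.06, adjusted p = 0.000864). HOXB region 10 (chromosome 17, 46699914 to 46705492) had 3675 and 3658 bp in the parental pair and 4468 and 4223 in the resistant pair (log2 change 0.43, adjusted p = 0.00723), but NRAS Q61K 1 reached 4457 bp. That call did not hold without centring (adjusted p = 0.114) or without parental 1 (adjusted p = 0.0522). HOXB region 9 (chromosome 17, 46689972 to 46690971) was unmarked in parental and colony libraries, covered over 696 and 682 bp in resistant, 166 and 190 bp in GFP, 389 bp in NRAS Q61K 1 and unmarked in NRAS Q61K 2 (adjusted p = 0.00408 against parental).

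In HOXC, some regions away from the ends of the cluster were marked anew or over more bases. HOXC region 4 (chromosome 12, 54388798 to 54390538) had 1581 and 1732 bp under peaks in the resistant libraries and none in any of the other 8. It entered the test through the resistant pair alone, so no p-value is given for it. HOXC region 2 (chromosome 12, 54366777 to 54368697) had 615 and 741 bp in the parental pair, none in colony, 1921 and 1701 in the resistant pair, 287 and 553 in the GFP pair and 960 and 712 bp in the NRAS Q61K pair. It was thus highest in both resistant libraries and absent in both colony libraries (log2 change 1.39, SE 0.26, adjusted p = 0.00512). With lists cut to equal length its change was 2.47 (adjusted p = 0.0733). HOXC region 6 (chromosome 12, 54409482 to 54414755) covered 3309 and 3435 bp in the parental pair, 3139 and 3242 in the colony pair, 4753 and 4747 in the resistant pair, 3827 and 3657 in the GFP pair and 3616 and 3264 bp in the NRAS Q61K pair (log2 change 0.67, SE 0.07, adjusted p = 0.000198). The widest single peak of HOXC region 6, however, measured 2362 and 2641 bp in the resistant libraries. It measured 2277 bp in colony 2 and 3075 to 3550 bp in the others. The highest fold over background there was 9.38 and 8.90 in the resistant pair and 14.4 to 27.2 in the others. HOXC regions 9 and 7, on the HOXC4 side, were narrower, while HOXC region 8 was not called (adjusted p = 0.182). HOXC region 9 (chromosome 12, 54446207 to 54451285, reaching past the interval and counted whole) had 4175 and 4166 bp in the parental pair and 3136 and 2432 in the resistant pair (log2 change -0.36, adjusted p = 0.0245). HOXC region 7 (chromosome 12, 54421779 to 54423985) had 1802 and 1265 bp against 822 and 811 bp (log2 change -0.56, adjusted p = 0.0453). The fixed window with the part of HOXC region 9 inside the interval was not called (log2 change -0.22, adjusted p = 0.129). The window holding HOXC regions 7 and 8 was called narrower (log2 change -0.59, adjusted p = 0.0172). HOXC region 9 did not pass without parental 1, parental 2 or resistant 2 (adjusted p = 0.0549, 0.127 and 0.100), nor HOXC region 7 without parental 1, resistant 1 or resistant 2 (0.224, 0.137 and 0.132).

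In HOXD and HOXA, 1 region each stood out. HOXD region 3 (chromosome 2, 176971612 to 176973096), in the unmarked stretch next to the HOXD13 block, had 1177 and 1273 bp in the resistant libraries and none in the other 8. It too entered the test through the resistant pair alone, and no p-value is given. HOXA region 4 covered 9665 and 8609 bp in the parental pair, 9007 and 8020 in the colony pair, 11871 and 12950 in the resistant pair, 9134 and 10227 in the GFP pair and 9236 and 9917 bp in the NRAS Q61K pair (log2 change 0.63, SE 0.10, adjusted p = 0.00195). Its widest single peak measured 7405 and 8970 bp in the resistant libraries and 3550 to 4815 bp in the others. The fixed window 40 to 50 kb into HOXA, which holds part of this region and the end of HOXA region 3, was broader too. It held 6617 and 7550 bp in resistant and 1840 to 4162 bp in the other libraries. The next window, at 50 kb, held most of the rest of the region and was not called (adjusted p = 0.210). It had 6162 and 6296 bp in resistant and 6336 to 7323 bp in the other libraries. HOXA region 8 (chromosome 7, 27235498 to 27241710), on the HOXA13 side, was narrower, with 2588 and 2137 bp in resistant and 3983 and 4440 bp in parental libraries (log2 change -0.59, SE 0.14, adjusted p = 0.0168). It did not pass without parental 2 (adjusted p = 0.106) or without resistant 2 (0.0977). The call at HOXD region 2 (5964 and 5803 bp in the parental pair, 6287 and 5667 bp in resistant libraries; log2 change 0.22, adjusted p = 0.0186) rested on centring, since the uncentred groups overlap and gave 0.02 (adjusted p = 0.915). It did not pass without parental 1 (adjusted p = 0.0971) or resistant 1 (0.119) either.

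Of the 15 calls, 9 passed under every alternative that was applied to single regions and gave a value. They comprise the narrower HOXB regions 11 and 12 and the wider ones, HOXB regions 2, 4 and 9, HOXC regions 4 and 6, HOXD region 3 and HOXA region 4. HOXC region 4 and HOXD region 3 passed the filter through the resistant pair alone, so their calls are no independent support. They could not be tested without either resistant library, since a single marked library is below the filter. With weaker peaks (−log10 q under 10) dropped, HOXB region 9 and HOXD region 3 gave no value, so their calls were not tested there. The highest −log10 q in the resistant pair was 6.92 and 5.01 at HOXB region 9. At HOXD region 3 it was 13.2 and 7.45. The 3 regions gained in both resistant libraries and neither parental one were HOXB region 9, HOXC region 4 and HOXD region 3, 3 of 35 HOX regions where 1.64% of all regions were gained. The count of narrower regions fell from 5 to 3 without parental 1 and to 2 without resistant 2.

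**Figure D3:**
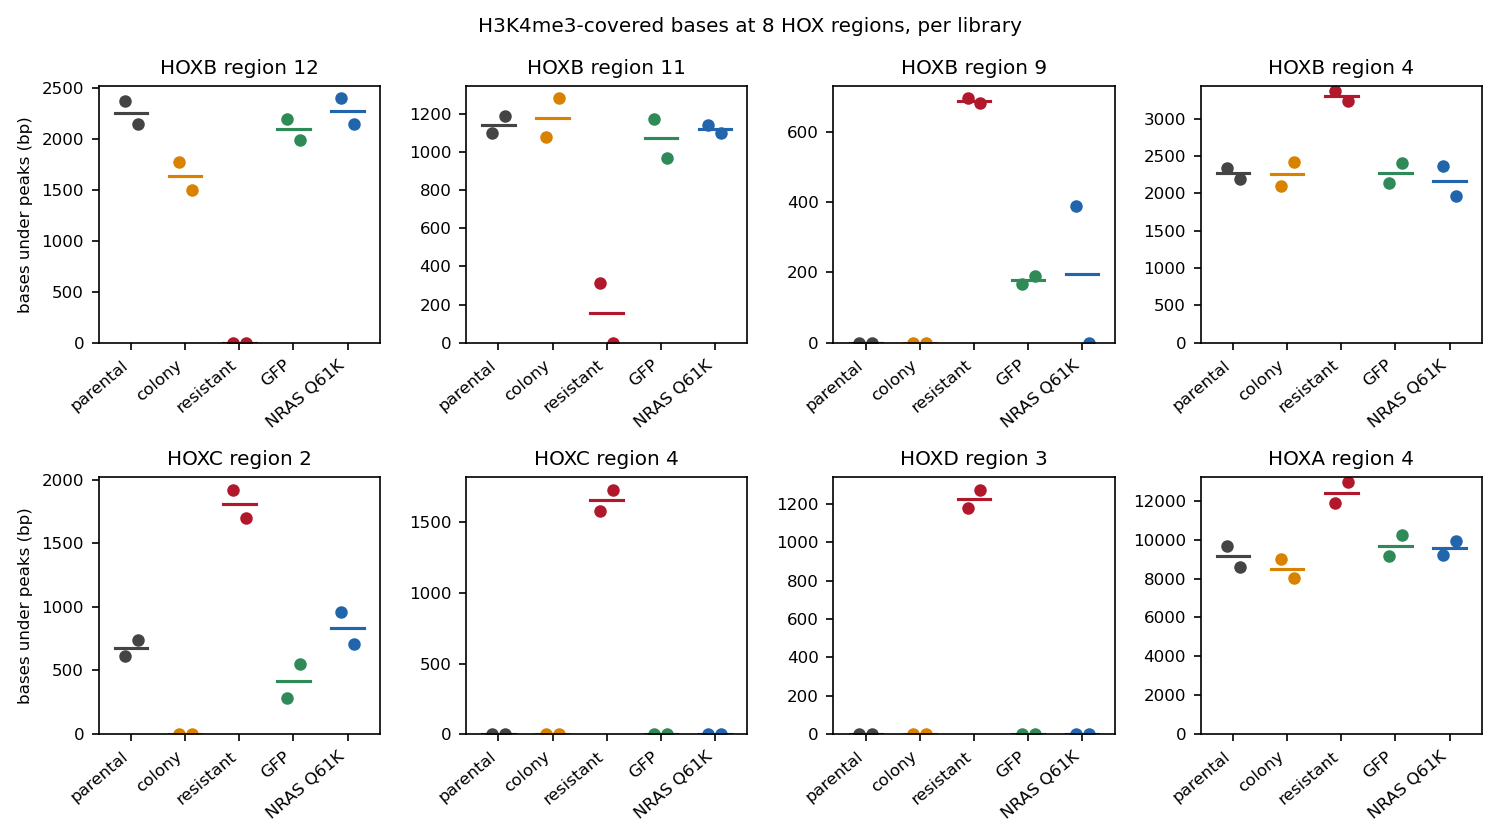
Bases under H3K4me3 peaks (bp) in 8 HOX regions for the 10 libraries by group; points are libraries and bars the mean of the 2, and each panel has its own vertical scale from 0. The resistant pair is at 0 in HOXB region 12 and is the only pair marked in HOXC region 4 and HOXD region 3.

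Between colony and parental cells few HOX regions differed. Only HOXC region 2 was lost from both colony libraries, where 8.34% of all regions were, and none was gained (0.605% of all). By covered length 2 of 33 HOX regions were wider (4.29% of all) and 4 narrower (16.7% of all), with a median log2 change of -0.10 against -0.05 over all regions. In fixed windows 2 of 37 were wider (4.61% of all) and 5 narrower (13.7% of all). These shares lie near those of the genome.

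The wider regions were the outermost ones of HOXA and HOXC. HOXA region 1 (chromosome 7, 27133922 to 27139606), at the HOXA2 end, had 4449 and 4019 bp in the parental pair, 5570 and 5024 in the colony pair, 3607 and 3835 in the resistant pair, 4820 and 4960 in the GFP pair and 4803 and 4741 bp in the NRAS Q61K pair (log2 change 0.28, SE 0.07, adjusted p = 0.0245). HOXC region 1 (chromosome 12, 54331411 to 54336048), at the HOXC13 end, had 3186 and 3031 bp in the parental pair, 3974 and 4511 in the colony pair, 2467 and 2520 in the resistant pair, 3345 and 2578 in the GFP pair and 3476 and 3157 bp in the NRAS Q61K pair (log2 change 0.40, SE 0.11, adjusted p = 0.0310). In both the colony pair was highest and the resistant pair lowest of all libraries. HOXC13, the gene at that end, acts in hair and nail keratinisation, and HOXA2 in the hindbrain.

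The narrower regions included HOXC region 2, empty in colonies (adjusted p = 0.000862), and HOXC region 3, with 5179 and 5412 bp in the parental pair and 4518 and 4206 bp in the colony pair (log2 change -0.29, adjusted p = 0.0303). HOXC region 7 covered 983 and 809 bp in colony libraries (log2 change -0.67, adjusted p = 0.0272), and HOXB region 12 was narrower by 0.45 on the log2 scale (adjusted p = 0.0379). None of the 6 calls passed under every alternative. HOXC region 2 passed without any 1 library, whereas HOXC region 3 did not without parental 2 or colony 2 (adjusted p = 0.140 and 0.143), nor HOXC region 7 without parental 1 or colony 2 (0.148 and 0.117), nor HOXB region 12 without parental 1, parental 2 or colony 2 (0.115, 0.0952 and 0.167). Without parental 1 or parental 2 no wider region passed, and without either colony library 1 did. Without parental 1, 2 of the 4 narrower regions still passed. Without colony 2, HOXC region 2 was the 1 that did, beside HOXC region 8, which was not called with all libraries. When weaker peaks (−log10 q under 10) were dropped, HOXC regions 2 and 3 each had a log2 change of -0.03 (adjusted p = 0.989), and with lists of equal length -1.07 and -0.18 (adjusted p = 0.460 and 0.322).

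Set against colony cells, resistant cells were again marked anew in HOXB, HOXC and HOXD and unmarked at the HOXB13 end, and they carried the HOXC region that colonies lacked. Wider in resistant cells were 13 of 33 HOX regions (11% of all were) and narrower were 4 (11.5% of all), with a median log2 change of 0.22 against 0.17 over all regions. In fixed windows 11 of 37 were wider (9.91% of all) and 5 narrower (12.2% of all). Gained in both resistant libraries and neither colony library were 4 regions (2.64% of all): HOXC regions 2 and 4, HOXB region 9 and HOXD region 3. HOXB region 12 was the 1 lost (3.56% of all). At HOXC region 2 colonies had no peak and the resistant libraries 1921 and 1701 bp (adjusted p = 4.08e-05). HOXC region 6 differed by 0.77 (SE 0.07, adjusted p = 9.19e-05) and HOXA region 4 by 0.76 (SE 0.10, adjusted p = 0.000833) on the log2 scale. HOXB regions 2, 4 and 10 were wider by 0.53, 0.74 and 0.54 (adjusted p = 0.000273, 0.000835 and 0.00278), and HOXB region 9 was marked in the resistant pair only of these 4 libraries (adjusted p = 0.00437). HOXC region 4 and HOXD region 3, marked in resistant libraries alone, are counted among the wider regions but entered the test through that pair only. Narrower were HOXB region 12 (adjusted p = 2.79e-06), HOXB region 11 (-1.89, adjusted p = 0.00748), HOXC region 1 (-0.50, adjusted p = 0.0107) and HOXA region 1 (-0.26, adjusted p = 0.0309).

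Some of the wider calls depended on centring. HOXA region 2 (chromosome 7, 27158416 to 27163892), with 3546 and 4121 bp in colony and 4559 and 4294 bp in resistant libraries, gave a log2 change of 0.42 (adjusted p = 0.00677), but 0.20 (adjusted p = 0.240) without centring. HOXA region 7 (chromosome 7, 27222163 to 27225468), with 2039 and 2051 bp against 2392 and 2590 bp, gave 0.48 (adjusted p = 0.00623), and 0.26 (adjusted p = 0.153) without centring. HOXB region 8 (chromosome 17, 46673026 to 46676544), with 2574 and 2359 bp against 2648 and 2483 bp, and HOXD region 2, with 5649 and 6089 bp against 6287 and 5667 bp, overlapped between the groups (log2 change 0.28 and 0.25, adjusted p = 0.0363 and 0.0123). Without centring these became 0.05 and 0.02 (adjusted p = 0.904 and 1.00). HOXB region 10 did not pass without centring either (adjusted p = 0.0520). Without centring 8 regions were wider and 7 narrower. Among the narrower calls, HOXA region 1 did not pass without colony 1 (adjusted p = 0.157) or resistant 1 (0.165), nor HOXC region 1 without colony 2 (0.0611) or resistant 1 (0.0556). Of the 17 calls 10 passed under every alternative that gave a value.

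Neither transgene comparison gave a call in the HOX clusters. For NRAS Q61K against GFP cells limma called 0 of 33 regions in either direction (5.06% of all were wider and 2.18% narrower), with 2 at an unadjusted p under 0.05 and the smallest adjusted p at 0.0882, for HOXB region 10. That region had 3817 and 3236 bp in GFP and 4457 and 4027 bp in NRAS Q61K libraries, a log2 change of 0.30 (SE 0.09). The median log2 change was 0.05 in the HOX regions and 0.05 over all. No HOX region was gained (3.01% of all) or lost (1.85% of all). For GFP against parental cells 0 of 33 were called (2.67% of all wider, 1.69% narrower), with 2 at an unadjusted p under 0.05, a smallest adjusted p of 0.262 at HOXC region 2, and medians of -0.09 and -0.03. HOXB region 9 was gained in both GFP libraries (3.46% of all), over 166 and 190 bp only, and none was lost (0.878% of all). In fixed windows neither comparison gave a call either (NRAS Q61K against GFP 3.88% of all wider and 1.79% narrower; GFP against parental 2.32% and 1.31%).

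HOXD region 1 (chromosome 2, 176953102 to 176954283), the outermost at the HOXD13 end, was marked weakly and not in every library: over 537 bp in parental 1, 407 and 153 bp in GFP and 480 and 265 bp in NRAS Q61K libraries. It had no peak in parental 2 or in any of the 4 drug-exposed libraries, and no comparison of all libraries called it, though without parental 2 it was called narrower in both drug groups. HOXB region 7 (chromosome 17, 46670607 to 46671677) was covered over 260 to 665 bp in 9 libraries and unmarked in colony 1. The remaining regions, among them HOXA regions 3, 5 and 6, HOXB regions 5 and 6, HOXC regions 5 and 8 and HOXD regions 4, 5 and 6, were called in no comparison of all libraries.

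At some regions both libraries of a group lay outside the range of the other 8. The resistant pair lay above all others at 8 of 35 regions (2.88% of all 31428 regions) and below at 8 (20% of all). Above were HOXA region 4, HOXB regions 2, 4 and 9, HOXC regions 2, 4 and 6 and HOXD region 3. Below were HOXA regions 1, 6 and 8, HOXB regions 11 and 12 and HOXC regions 1, 3 and 9. The colony pair lay above at 3 (5.21% of all) and below at 4 (3.67% of all), the GFP pair above at 1, HOXC region 9 (7.8% of all), and below at 0 (0.598% of all), and the parental pair at 0 on either side (1.78% and 0.496% of all). The NRAS Q61K pair likewise lay outside at 0 (7.6% of all above and 0.191% below).

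The overlap of covered bases between libraries, as a Jaccard index (shared bases over bases covered in either), gave a description of whole clusters. Replicate pairs reached 0.841 ± 0.0142 in the HOX clusters (SD, 5 pairs; range 0.816 to 0.850). Parental with NRAS Q61K libraries stood at 0.850, GFP with NRAS Q61K at 0.833 and parental with GFP at 0.825 (means of 4 pairs), each mean within the range of the replicate pairs. Colony libraries stood at 0.804 with parental, 0.792 with NRAS Q61K and 0.779 with GFP. Resistant libraries stood at 0.696 with parental, 0.692 with GFP, 0.691 with NRAS Q61K and 0.675 with colony. The highest pair that included a resistant library and one of another group reached 0.715, below the lowest pair of any other kind, 0.766. Over the genome the values were 0.813 for replicates, 0.779 for parental with NRAS Q61K, 0.771 for GFP with NRAS Q61K, 0.769 for parental with GFP, 0.737 for parental with colony, 0.706 for colony with GFP or NRAS Q61K, 0.693 for colony with resistant, 0.692 for parental with resistant, 0.660 for NRAS Q61K with resistant and 0.640 for GFP with resistant. The HOX value was thus the higher one for every kind of pair except colony with resistant, and this difference was not tested. By cluster, resistant with parental libraries stood at 0.799 in HOXD, 0.691 in HOXB, 0.687 in HOXA and 0.637 in HOXC.

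**Figure D4:**
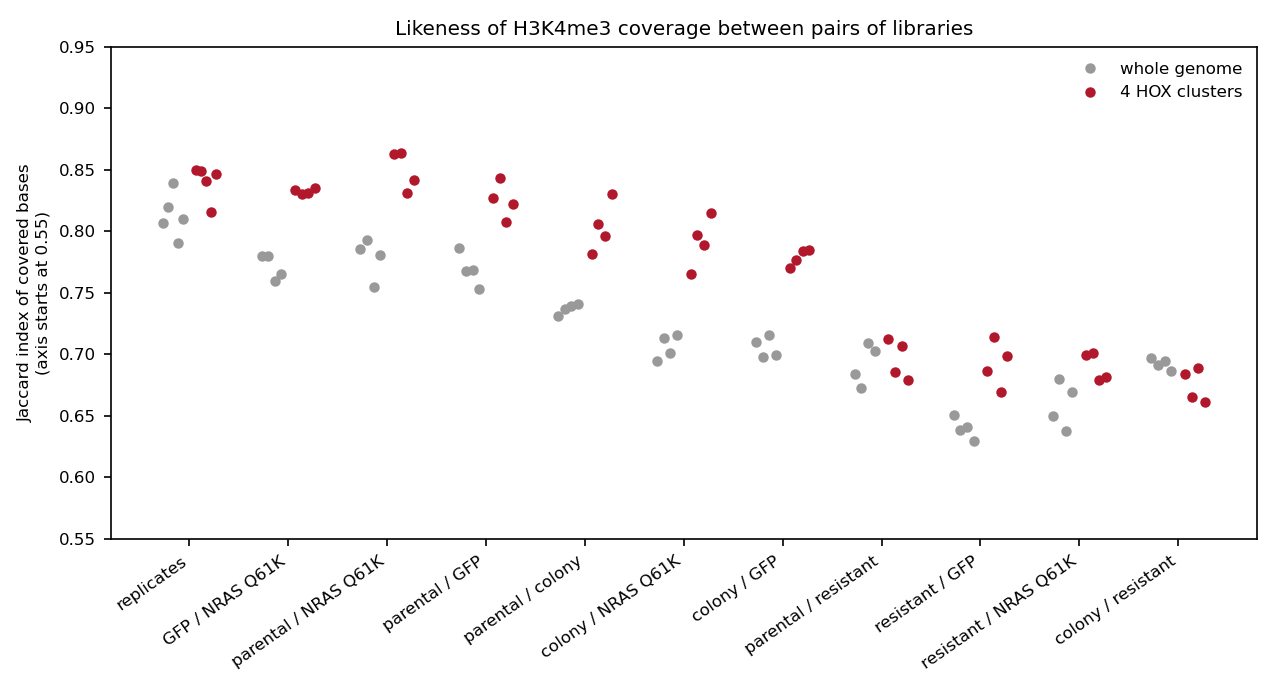
Jaccard index of bases under H3K4me3 peaks for pairs of libraries, over the genome (grey) and in the 4 HOX clusters (red); each point is a pair of libraries and the vertical axis starts at 0.55. HOX values stay between 0.766 and 0.864 for pairs of different groups without a resistant library and between 0.661 and 0.715 for those with one.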

How the data were processed

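Per the labels, chromatin of WM164 cells was precipitated with an H3K4me3 antibody. Inputs, 10 of the 20 samples, were not used here. The authors deposited 1 peak list per library, in which start and end are bases. The deposited score, the fold (a ratio over background) and the −log10 p-value and −log10 q-value are the authors' own. The −log10 q-value served only to filter and rank peaks. Per the submitters' processing notes, BWA, SAMtools, MACS2 2.1.2, deepTools 2.5.4, GRCh37 and hg19 were used, with no roles given. The lists hold no read counts, so depth is unknown. Of 306884 peaks, 589 off the autosomes and X were left out.

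Covered bases, merged regions (1000 bp) and 10 kb windows were computed with Python 3.11.15, numpy 2.4.6, pandas 2.3.3 and scipy 1.17.1. Lengths as log2(bases + 200) of features marked in at least 2 libraries were fitted with limma 3.58.1 (R 4.3.3, 5 group means, eBayes with trend, Benjamini-Hochberg). Scripts were tested on simulated data. Named are all regions past the threshold and the 5 most covered. Gains and losses need peaks in both libraries of 1 group and neither of the other. Alternatives were peaks of −log10 q of 10 or more, equal list lengths, other pseudocounts (50 and 1000 bp), merging, filters, windows and overlaps, no centring, separate fits, a replicate block, parental controls alone and leaving out each library. Other merging, window sizes and overlaps were applied to counts, not to single regions. The HOX intervals, tests and lists were chosen with earlier results of these data known. Lists of cofactor, chromatin-modifier and cell type marker genes were not used, because they need gene positions in GRCh37. For the same reason the cell type label was not checked against markers. Figures were drawn with matplotlib 3.10.9.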

Additional observations from a re-analysis of the deposited data

Results flagged for a closer look

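The HOXA coverage of parental 2 stood apart from the other 5 unexposed libraries. It was 30250 bp, where parental 1 had 32256 bp, the GFP libraries 32523 and 32466 bp and the NRAS Q61K libraries 32176 and 32690 bp. Its gap to the nearest library exceeded Dixon's critical value. Chance flags about 1 in 20 groups, and 10 groups were examined.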

How the results depend on the processing

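Directions at the 4 clusters in the drug-exposed libraries reversed on the share of all covered bases (122.5 bases per Mb under peaks in HOXA, 61.49 in HOXB, 61.68 in HOXC and 76.03 in HOXD) and, with lists of equal length, in HOXA (934.1 bp), HOXC (128.4 bp) and HOXD (860.4 bp). Among single windows, 2 narrower calls in colonies reversed when weaker peaks (−log10 q under 10) were dropped: HOXA window 5 (0.2667, adjusted p = 0.508) and HOXC window 6 (0.1184, adjusted p = 0.695). The cause was not tested.

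For regions in colonies against parental cells, the 2 wider calls became 0 at −log10 q of 10 or more and 1 with equal lists, no centring or a separate fit. The 4 narrower calls became 2 at −log10 q of 10 or more, without centring or among regions in all 10 libraries, 1 in a separate fit and 0 with equal lists. In resistant against parental cells the 5 narrower calls became 3 at −log10 q of 10 or more. In resistant against colony cells no centring turned 13 wider and 4 narrower into 8 and 7. In NRAS Q61K against GFP cells 1 region was wider at −log10 q of 10 or more and 1 with equal lists, and 1 was narrower when only overlapping peaks were merged, as was 1 wider in GFP against parental cells.

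For windows, the 2 wider colony calls became 0 at −log10 q of 10 or more and 1 with equal lists, no centring, a separate fit or 5 kb windows. The 5 narrower ones became 1 at −log10 q of 10 or more or with equal lists, 2 without centring and 3 with a pseudocount of 50 bp or a separate fit. The 10 wider windows of resistant against parental cells became 6 without centring and 16 with 5 kb windows, and NRAS Q61K against GFP cells had 1 wider at −log10 q of 10 or more or with equal lists.

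Losses in colonies became 0 at −log10 q of 10 or more or with equal lists and 2 when only overlapping peaks were merged. That merging gave 6 gains and 2 losses in resistant against parental cells, 7 and 2 against colony cells, 1 loss in NRAS Q61K and 2 gains in GFP cells. At −log10 q of 10 or more resistant cells had 2 losses against each of parental and colony cells and 2 gains against colony cells, and GFP cells 2 gains. GFP gains became 0 with equal lists or a minimum of 200 bp.

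Without 1 library, colony calls ranged from 0 to 1 wider and 2 to 4 narrower regions, and from 0 to 1 wider and 1 to 4 narrower windows. Narrower regions in resistant against parental cells ranged from 2 to 5. Losses ranged from 1 to 2 in colonies and in resistant cells against either group and from 0 to 2 in NRAS Q61K cells, and GFP gains from 1 to 3.

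The labels number the libraries 1 and 2 in every group, but deviations of same-numbered libraries did not move together (correlations from -0.066 to 0.077). With the replicate block the region counts were 2 wider and 4 narrower in colonies, 11 and 5 in resistant against parental and 13 and 4 in resistant against colony cells, with 0 in the transgene comparisons. The narrower colony windows became 3.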
